A study of Mus musculus with 4 samples.

Results

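Olfm4, Igfbp4, Tnfrsf19, Gkn3 and Slc14a1 are 5 genes that the stem cells of the mouse small intestine carry at a higher level than those of the large intestine. They were picked by name from the 55487 genes of the deposited tables because of that difference, so their levels in the 2 intestines are described here without a test. RNA was sequenced from sorted Lgr5-EGFP-positive cells of the large intestine, caecum to rectum (LISC, 2 libraries), and from Lgr5-EGFP-positive, CD24-negative cells of the small intestine, taken near the pylorus and near the caecum (SISC, 2 libraries). No CD24 gate is named for LISC. All 4 libraries came from untreated mice of the genotype Lgr5-EGFP-IRES-creERT2, aged 6 to 12 weeks. In this knock-in line EGFP and creERT2 are expressed from the Lgr5 locus, and the line is known for a mosaic reporter, so that the sort takes the crypts in which the reporter is active. All 5 genes passed the filter on low counts, Gkn3 and Slc14a1 through their SISC counts. Whether the 2 libraries of a group are 2 sets of animals is not stated in the labels, so p-values below measure the spread between these libraries, which for LISC may be technical; the SISC libraries differed in the sex pattern given below.

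Stem cells at the crypt base divide throughout life and are kept by Wnt signals, which Lgr5, a receptor for R-spondins, strengthens, and by Notch signals from neighbouring secretory cells. Olfm4 encodes olfactomedin 4, a secreted glycoprotein that is among the most abundant transcripts of Lgr5-positive cells in mouse small intestine and is known as a Notch target there. Igfbp4 encodes a secreted protein that binds insulin-like growth factors and was also described as a Wnt antagonist in Xenopus and mouse cells. Tnfrsf19, also called Troy, is a Wnt-induced member of the TNF receptor superfamily that sits in the membrane beside Lgr5. Gkn3 encodes a gastrokine, a small secreted protein known from the mouse stomach. Slc14a1 encodes the urea transporter UT-B, known best from red blood cells and kidney vessels.

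The start regions of the genes differ in base composition, and 4 of them are shown so that this can be seen. RefSeq windows (GRCm38.p6) of 300 bases, 250 before to 50 after an annotated start, were at hand for 4 of the 5 genes. Strings searched on both strands were AGATAA, bound by GATA factors, CTTTGA, bound by TCF and LEF factors, TTTATG, bound by CDX factors, and CAGCTG, the E-box of ASCL2 and other factors, which reads the same on both strands. GTGGGAA of the Notch factor RBPJ and the box TATAAA near transcription starts were also searched. The windows are chr14:80000052-80000351 (plus strand) for Olfm4, chr6:87388886-87389185 (minus) for Gkn3, chr11:99040994-99041293 (plus) for Igfbp4 and chr14:61037938-61038237 (minus) for the inner of the 2 Tnfrsf19 starts. Capitals mark a match, and each window reads 5′ to 3′ along the gene's strand.
Olfm4: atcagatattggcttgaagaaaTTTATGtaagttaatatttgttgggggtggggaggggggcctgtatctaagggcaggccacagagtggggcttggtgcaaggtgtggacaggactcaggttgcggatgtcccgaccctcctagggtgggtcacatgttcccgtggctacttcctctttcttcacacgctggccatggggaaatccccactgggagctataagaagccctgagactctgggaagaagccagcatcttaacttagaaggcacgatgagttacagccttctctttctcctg
Gkn3: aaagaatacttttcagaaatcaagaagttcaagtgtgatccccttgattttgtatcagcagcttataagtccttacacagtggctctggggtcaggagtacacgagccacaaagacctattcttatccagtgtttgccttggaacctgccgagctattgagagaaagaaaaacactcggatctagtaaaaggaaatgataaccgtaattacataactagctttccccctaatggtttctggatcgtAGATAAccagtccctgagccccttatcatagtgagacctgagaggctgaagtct
Igfbp4: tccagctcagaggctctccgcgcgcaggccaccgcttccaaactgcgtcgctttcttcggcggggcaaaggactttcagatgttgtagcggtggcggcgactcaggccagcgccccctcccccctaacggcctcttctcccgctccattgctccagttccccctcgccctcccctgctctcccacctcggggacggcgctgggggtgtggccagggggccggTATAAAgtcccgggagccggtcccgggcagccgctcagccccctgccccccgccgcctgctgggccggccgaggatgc
Tnfrsf19: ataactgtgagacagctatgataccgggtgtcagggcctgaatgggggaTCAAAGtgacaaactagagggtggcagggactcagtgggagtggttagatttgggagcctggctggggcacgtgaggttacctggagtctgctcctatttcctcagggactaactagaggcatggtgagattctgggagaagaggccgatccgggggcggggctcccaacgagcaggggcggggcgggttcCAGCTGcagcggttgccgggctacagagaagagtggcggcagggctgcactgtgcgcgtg
The Igfbp4 window held 71.3% G and C and 27 CpG pairs, more CpG pairs than 84.5% of 32841 mouse windows, and a TATAAA match 28 bases before the start. The Gkn3 window had 42.7% G and C, above 15.6% of windows, and 5 CpG pairs, and held AGATAA across the start, from 4 bases before it. The Olfm4 window had 52.3% G and C and also 5 CpG pairs, where the median window had 52.7% and 7, with a TTTATG match 228 bases before the start. The shown Tnfrsf19 window held a TCF and LEF match on the opposite strand, 201 bases before the start, and an E-box match 10 bases before it. The other Tnfrsf19 window, at its outer start, held none of the 6 strings. Such matches are common: AGATAA was in 11.2%, CTTTGA in 16% and TTTATG in 11.9% of all windows, CAGCTG in 16.3%, GTGGGAA in 6.38% and TATAAA in 13.6%. No string was found in more than 1 of the 4 genes, and a match is letters, not a bound site.

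Facts of the libraries bear on every value below. Total expected counts were 12795400 and 24142200 in LISC replicates 1 and 2, and 16490500 and 27227700 in SISC replicates 1 and 2. Ribosomal RNA genes took 36.6% and 0.304% of these counts in LISC replicates 1 and 2, and 31.8% and 0.246% in SISC replicates 1 and 2. These genes also take a share of TPM, a level per transcript length, which is used here to compare genes within a library. CPM, library-scaled counts with TMM factors, are used to compare libraries. Xist was read at 0.741 and 0.344 CPM in LISC, and at 539 and 0.812 CPM in SISC replicates 1 and 2, and the Y-linked Ddx3y at 25.8 and 39 CPM in LISC against 0 and 40.7 CPM in SISC, so SISC replicate 1 showed a female pattern and the other 3 libraries showed a male pattern.

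Lgr5 and Ascl2 were read in both intestines, which for Lgr5 follows from the sort on its locus and does not measure purity. Lgr5 itself was read at 147 and 89.7 CPM in LISC against 114 and 173 CPM in SISC, and the stem cell factor gene Ascl2 at 54.5 and 43.7 CPM in LISC against 52.7 and 73.6 CPM in SISC. Neither passed the test (edgeR quasi-likelihood, adjusted p = 0.957 and 0.819 over the 14165 genes tested). Cd24a, the gene of the gated surface protein, had 328 and 503 CPM in LISC and 341 and 407 CPM in SISC.

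Olfm4 had the highest level of the 5 genes. It was read at 91.5 and 108 CPM in LISC against 7765 and 12472 CPM in SISC, from 987 and 3143 counts against 106718 and 399270 counts. The SISC libraries were both far above the LISC libraries, and the fitted log2 difference of LISC over SISC was −6.66 ± 0.71 (SE), a level 101-fold higher in SISC. Olfm4 made up 0.00771% and 0.013% of all counts in LISC, against 0.647% and 1.47% in SISC. By TPM it ranked 2065 and 1970 among 21884 nuclear protein-coding genes in LISC, and 24 and 12 in SISC. At 22.1 and 52.5 TPM it was the most abundant of the 5 genes in LISC as well.

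Gkn3, the gastrokine gene, was close to absent from LISC. It had 2 and 1 counts in LISC replicates 1 and 2, under the limit of 3 counts that a count of 0 allows, against 583 and 5287 counts in SISC. In CPM these were 0.185 and 0.0344 in LISC and 42.4 and 165 in SISC. The fitted log2 difference of LISC over SISC was −10.24 ± 1.19 (SE), a level 1211-fold higher in SISC. Within replicates 1 and 2 the log2 difference was −7.84 and −12.23. The ratio of pooled counts, most of them from SISC replicate 2, put SISC 1706-fold above LISC. Its exact 95% interval from 583 to 8273 covers counting error only. Of the 5 genes, Gkn3 also differed most between the SISC libraries, with replicate 2 at 3.89 times the CPM of replicate 1.

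Slc14a1, the urea transporter gene, had 4 and 7 counts in LISC and 664 and 2456 counts in SISC. That was 0.371 and 0.241 CPM in LISC against 48.3 and 76.7 CPM in SISC, a fitted log2 difference of −7.75 ± 0.47 (SE). Its SISC libraries lay closer together than those of Gkn3, at a ratio of 1.59. By pooled counts SISC was 247-fold above LISC (exact 95% interval 138 to 496, counting error only).

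Igfbp4 and Tnfrsf19 were lower in LISC but clearly read there. Igfbp4, the growth factor binding protein gene, had 30.2 and 25.4 CPM in LISC and 165 and 233 CPM in SISC, or 7.17-fold higher in SISC (log2 −2.84 ± 0.34, SE), from 326 and 738 counts in LISC. Tnfrsf19, the receptor gene, had 6.12 and 4.23 CPM in LISC and 33.2 and 59.4 CPM in SISC, or 9.04-fold higher in SISC (log2 −3.18 ± 0.42, SE), from 66 and 123 counts in LISC. For all 5 genes both LISC libraries were below both SISC libraries, which follows from how the genes were chosen.

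**Figure D1:**
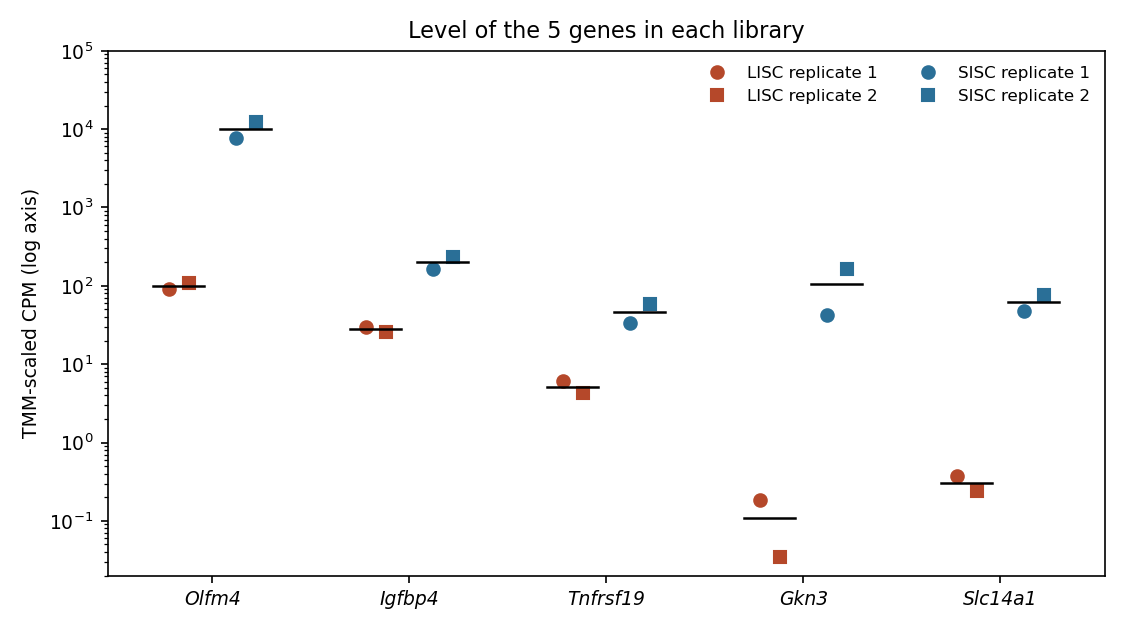
Level of each gene in every library, as TMM-scaled CPM on a log axis, with LISC in red and SISC in blue, circles for replicate 1, squares for replicate 2 and a bar at the mean of each group. Olfm4 spans means of 99.7 CPM in LISC and 10118 CPM in SISC, and Gkn3 and Slc14a1 lie below 1 CPM in LISC.

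The order of levels between genes was read from TPM. In LISC, Olfm4 (37.3 ± 21.5 TPM, SD, n = 2) was followed by Igfbp4 (10.7 ± 1.36), Tnfrsf19 (1.33 ± 0.46), Gkn3 (0.125 ± 0.0919) and Slc14a1 (0.08 ± 0.0141). In SISC, Olfm4 (3866 ± 2455 TPM, SD, n = 2) was followed by Gkn3 (170 ± 166), Igfbp4 (80.6 ± 32.7), Slc14a1 (18 ± 11.5) and Tnfrsf19 (13.5 ± 9.51). In SISC, Igfbp4 was above Slc14a1, and Slc14a1 above Tnfrsf19, in both libraries. The means of Slc14a1 and Tnfrsf19 differed by less than their SDs. Gkn3 had 53.2 and 288 TPM and Igfbp4 57.5 and 104 TPM, so that their order turned between the libraries, and Slc14a1 had 9.87 and 26.2 TPM and Tnfrsf19 6.81 and 20.3 TPM. In LISC the order of Gkn3 and Slc14a1 turned as well, at 0.19 and 0.06 TPM for Gkn3 and 0.07 and 0.09 TPM for Slc14a1. Gkn3 ranked 12151 and 13706 among protein-coding genes in the LISC libraries and 945 and 345 in the SISC libraries.

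**Figure D2:**
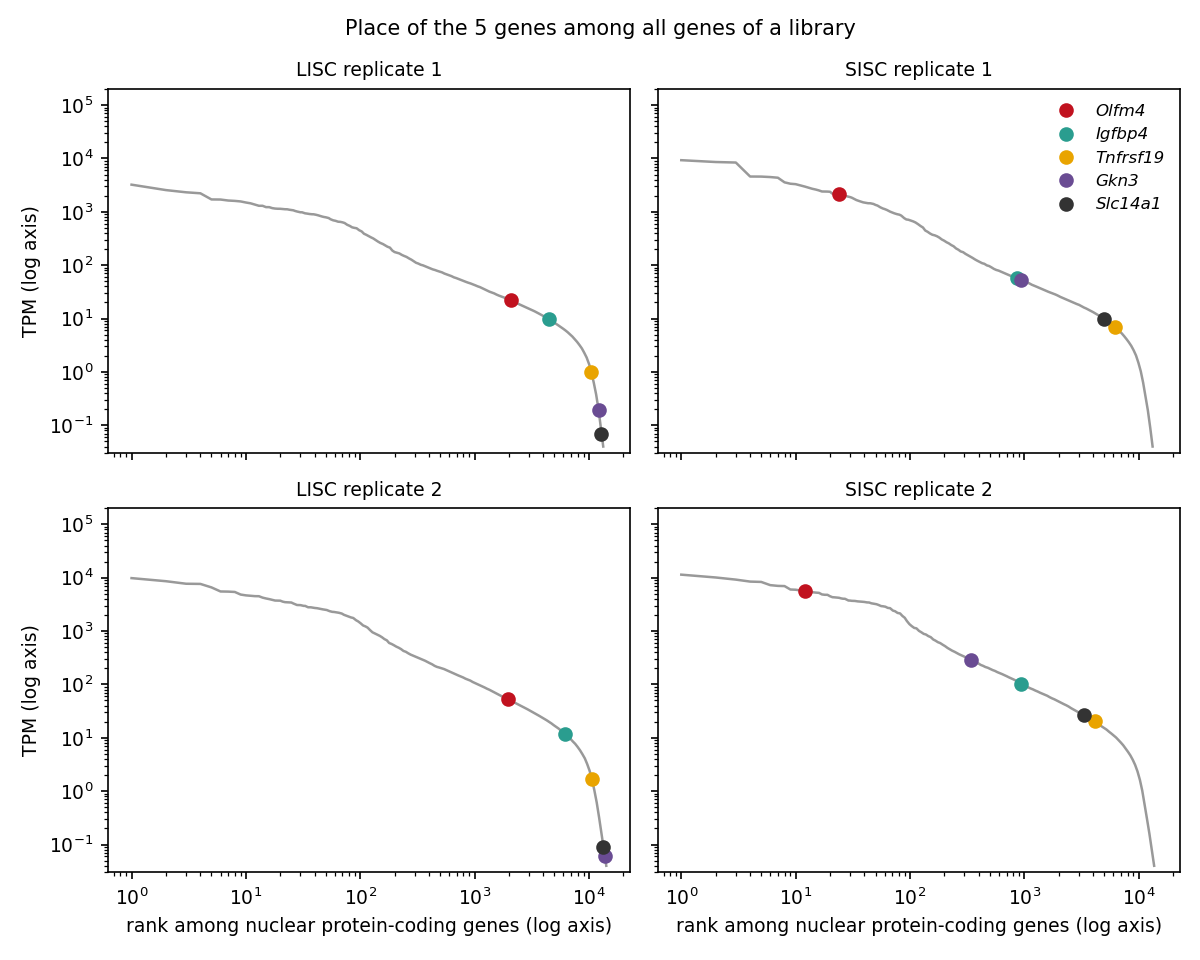
TPM against rank among nuclear protein-coding genes in each library, both on log axes, with LISC on the left and SISC on the right; the grey line is all genes and coloured points are the 5 genes. Olfm4 sits at rank 2065 and 1970 in LISC and at rank 24 and 12 in SISC, while Gkn3 and Slc14a1 lie at the foot of the curve in LISC.

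Libraries of one intestine differed too, and this was not used to choose the genes. All 5 genes were higher in replicate 2 than in replicate 1 of SISC. In CPM this was 1.61-fold for Olfm4, 1.41-fold for Igfbp4, 1.79-fold for Tnfrsf19, 1.59-fold for Slc14a1 and 3.89-fold for Gkn3. The median log2 difference of all 14165 genes tested was 0.02. Of genes tested, 15.9% rose more than Olfm4, 23% more than Igfbp4, 11.6% more than Tnfrsf19, 16.7% more than Slc14a1 and 1.11% more than Gkn3. These shares were taken from CPM with 0.5 added. The 2 SISC libraries also differed in sex pattern and ribosomal RNA share, given above, and these cannot be told apart from this difference. In LISC, Olfm4 was higher in replicate 2 (1.18-fold) and the other 4 were lower there. Markers of Paneth, goblet, enteroendocrine and tuft cells were higher in replicate 1 of SISC, while those of enterocytes and colonocytes were mixed. The 10 Paneth cell markers, among them the lysozyme gene Lyz1, summed to 63.3 and 63.1 CPM in LISC and to 9006 and 1382 CPM in SISC replicates 1 and 2. The 10 goblet and deep crypt secretory markers summed to 4053 and 8719 CPM in LISC and to 2158 and 470 CPM in SISC. All 10 Paneth, all 10 goblet, all 10 enteroendocrine and all 7 tested tuft cell markers were lower in SISC replicate 2 than in SISC replicate 1. Of the 10 enterocyte and colonocyte markers 4 were higher in SISC replicate 2, and the list summed to 143 and 171 CPM in SISC replicates 1 and 2. The direction of the 5 genes was opposite to that of the Paneth, goblet, enteroendocrine and tuft cell markers. The part of other cells in it was not tested. Of 36 other stem cell markers, described below, 22 were higher in SISC replicate 2, against 7218 of the 14165 genes tested. Their median log2 difference of replicate 2 over replicate 1 was 0.21 in SISC and −0.33 in LISC. For the 5 genes the difference from LISC had the same direction against each SISC library, which follows from how they were chosen. The log2 difference within replicates 1 and 2 was −6.41 and −6.85 for Olfm4, −2.45 and −3.20 for Igfbp4, −2.44 and −3.81 for Tnfrsf19, −7.84 and −12.23 for Gkn3, whose LISC values rest on 2 counts and 1 count, and −7.03 and −8.32 for Slc14a1.

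Cells outside the epithelium can express Igfbp4, Tnfrsf19 and Slc14a1, so markers of such cells were read. The 10 fibroblast and smooth muscle markers, Col1a1, Dcn and Pdgfra among them, summed to 0.371 and 1.41 CPM in LISC and to 0.364 and 0.187 CPM in SISC. Lum and Des were at 0 in all 4 libraries, while Col3a1 had 0.185 and 0.241 CPM in LISC and 0 in SISC. The 8 endothelial markers summed to 6.58 and 4.71 CPM in LISC and 5.31 and 4.06 CPM in SISC, with Kdr and Emcn at 0 in all 4. Most of the sum came from Vwf, at 4.08 and 2.1 CPM in LISC and 1.09 and 0.906 CPM in SISC, and from Egfl7. Egfl7 had 2.13 and 2.3 CPM in LISC and 4.22 and 2.81 CPM in SISC. The 6 erythroid markers summed to 0 and 18.7 CPM in LISC and to 0.728 and 14.4 CPM in SISC, beside 48.3 and 76.7 CPM of Slc14a1 in the same SISC libraries. The 10 immune markers summed to 5.74 and 8.32 CPM in LISC and 6.91 and 5.28 CPM in SISC. In LISC, Tnfrsf19 itself had 6.12 and 4.23 CPM and Slc14a1 0.371 and 0.241 CPM, so such sums are not small beside these genes there. The part of any of these cells in the levels of Igfbp4, Tnfrsf19 and Slc14a1 was not tested. In bulk RNA, fewer cells of a type and less RNA per cell cannot be told apart.

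Most other stem cell markers were not called. All 36 other genes reported as markers of intestinal stem cells were tested, and edgeR called 0 with LISC above and 2 with SISC above. Of the 36, 15 had an unadjusted p below 0.05, against 1899 of all 14165 genes. The background over all 14165 genes was 2.20% called, split into 1.45% with LISC above and 0.741% with SISC above. The 2 called genes were Sp5, a Wnt target that encodes a zinc finger factor, and Fstl1, which encodes a secreted follistatin-like protein. Sp5 had 6.58 and 6.50 CPM in LISC and 30 and 37.5 CPM in SISC, which was 5.17-fold higher in SISC (log2 −2.37 ± 0.27, SE; edgeR adjusted p = 0.0299). Its call was lost without LISC replicate 1 (edgeR adjusted p = 0.0634), without LISC replicate 2 (0.0913) and with limma on TPM (0.148). Fstl1 had 0 and 0.137 CPM in LISC and 11.1 and 33.5 CPM in SISC, and its pooled counts put SISC 267-fold above LISC (exact 95% interval 104 to 981; edgeR adjusted p = 0.0403).

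The count was sensitive to the test. With LISC above, DESeq2 called 3 of these markers, and 12 with SISC above, against 785 and 398 of all 14165 genes. Dropping the count filter gave 1 call with LISC above and 10 with SISC above. Without SISC replicate 1 edgeR called 5, and without LISC replicate 1 it called 4, all with SISC above. The list's median log2 difference was −0.45, against −0.02 over all genes tested, and 29 of 36 were lower in LISC, against 7370 of 14165 genes. The list does not record in which intestine each marker was reported, and the part of that in these values was not tested. Slc12a2, the ion cotransporter gene, had 960 and 922 CPM in LISC and 1169 and 1471 CPM in SISC (edgeR adjusted p = 0.818). Cdca7, a Myc-responsive gene, had 125 CPM in both LISC libraries and 266 and 368 CPM in SISC (edgeR adjusted p = 0.15). Cyp2e1, a cytochrome P450 gene, had 0 counts in LISC and 10.8 and 55.8 CPM in SISC, at least 175-fold higher in SISC when LISC is set to 3 counts per library, and was not called (edgeR adjusted p = 0.0756). At the other end Rgcc had 76.6 and 68.4 CPM in LISC and 13.3 and 21.4 CPM in SISC (edgeR adjusted p = 0.0603). Cyp2e1 and Rgcc were picked after their values were seen, as the extremes of the list.

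**Figure D3:**
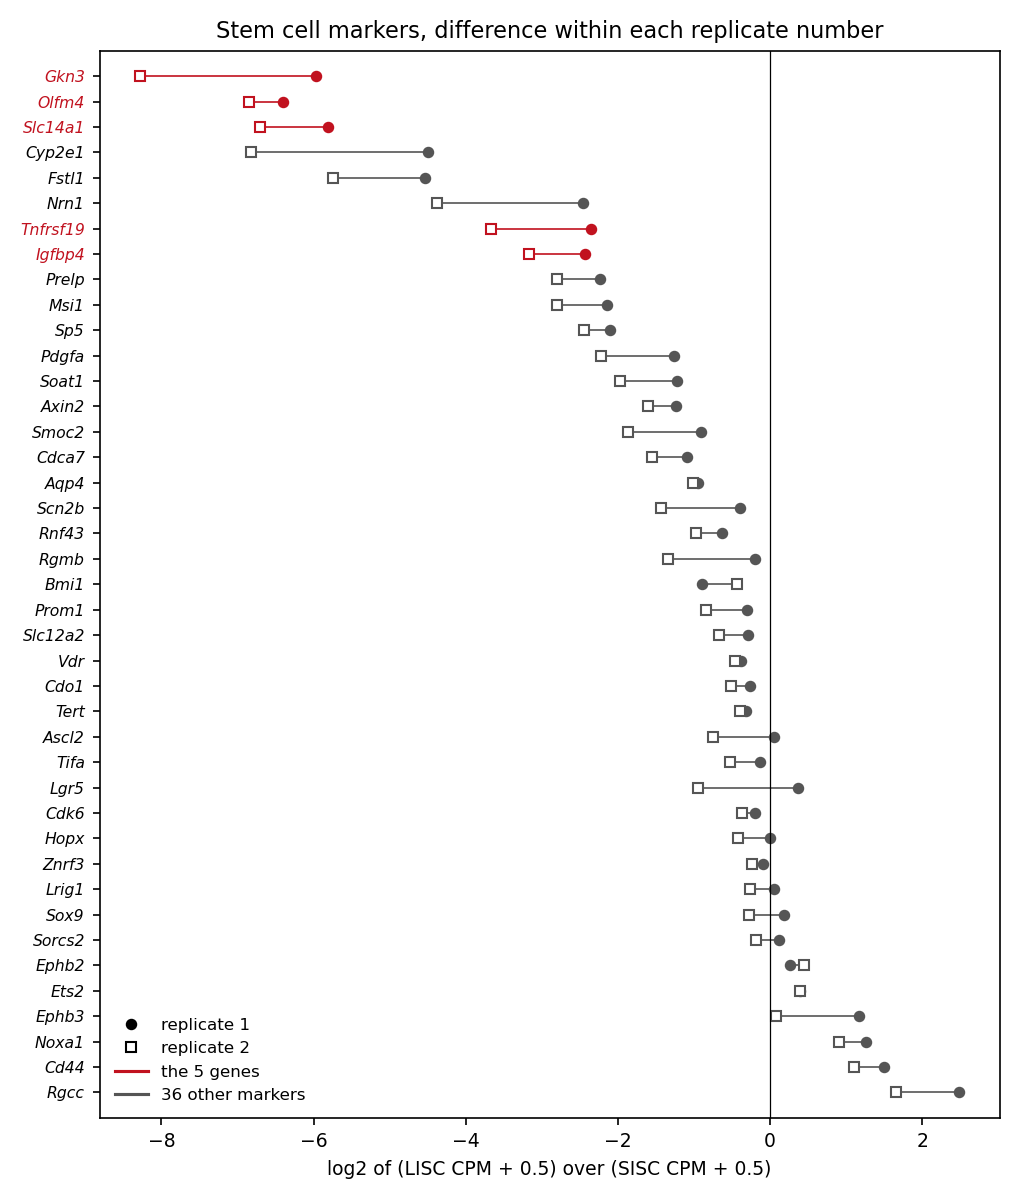
Log2 of LISC over SISC within replicate 1 (filled circles) and within replicate 2 (open squares) for the 5 genes (red) and 36 other stem cell markers (grey), each computed from CPM with 0.5 added, which shrinks the differences of genes with few counts. Olfm4, Gkn3 and Slc14a1 are among the points farthest left, and the 2 points of Lgr5 lie on either side of 0.

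Called genes of the signals known to act on crypt stem cells were counted beside those of all genes. Of 16 tested Wnt target and feedback genes, some of them also stem cell markers, 1 (Sp5) was called by edgeR, against 2.20% of all genes tested, with a median log2 difference of −0.30. DESeq2 called 1 of the 16 with LISC above and 3 with SISC above, and limma on TPM called 0. Over all 14165 genes DESeq2 called 785 with LISC above and 398 with SISC above. Axin2, the feedback inhibitor used as a Wnt readout, had 123 and 96.7 CPM in LISC and 290 and 295 CPM in SISC and was not called (edgeR adjusted p = 0.119). Myc had 115 and 95.6 CPM in LISC and 127 and 137 CPM in SISC (edgeR adjusted p = 0.825). Of 13 tested Notch genes 0 were called by edgeR, with 4 at an unadjusted p below 0.05, against 1899 of all 14165 genes. DESeq2 called 2 of the 13 and limma on TPM 1, all higher in LISC, where limma called 353 of all genes. Hes1, a direct Notch target, had 78.2 and 120 CPM in LISC and 61.7 and 147 CPM in SISC, and Nrarp, another target, 57.7 and 61.4 CPM in LISC and 58.3 and 51.4 CPM in SISC (edgeR adjusted p = 1 and 0.984). NF-kappa-B, known to act on OLFM4 in human cells, was covered by 10 genes, of which edgeR, DESeq2 and limma each called 0 and 0 had an unadjusted p below 0.05. Nfkbia, its inhibitor and target, had 67.7 and 105 CPM in LISC and 64.8 and 142 CPM in SISC, and the subunit gene Nfkb1 had 111 and 72.2 CPM in LISC and 103 and 60.9 CPM in SISC.

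Relatives of Olfm4 in the olfactomedin family were hardly read. Of 9 other family genes 2 passed the filter on low counts, and edgeR, DESeq2 and limma each called 0 of these. Also, 0 of the 2 had an unadjusted p below 0.05. With 2.20% of all genes called by edgeR, 0 of 2 is no result about the family. Olfm1 had 0.649 and 0.928 CPM in LISC and 1.38 and 3.03 CPM in SISC, and Olfml2a 0.834 and 0.309 CPM in LISC and 0.437 and 1.47 CPM in SISC. Olfm4 thus accounted for 91.5 of a family sum of 93 CPM in LISC replicate 1, and for 12472 of 12477 CPM in SISC replicate 2.

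In the insulin-like growth factor axis, Igfbp4 was the binding protein gene that these cells carried. Igfbp1, Igfbp2, Igfbp3, Igfbp5, Igfbp6 and Igfbp7 failed the filter, with no library above 0.291 CPM. Of 8 other tested genes of the axis 1 was called, where 1.45% of all genes were called with LISC above: Stc2, whose protein stanniocalcin 2 inhibits PAPP-A, the protease that cuts IGFBP-4. Stc2 had 19.5 and 22.9 CPM in LISC against 0.146 and 0.0937 CPM in SISC (edgeR adjusted p = 0.0155), and with 5 pooled counts in SISC the ratio was 201-fold (exact 95% interval 85.7 to 620). Pappa itself had 0 and 0.516 CPM in LISC and 0 and 0.0312 CPM in SISC and was not tested. The receptors were read in both intestines, Igf2r at 236 and 117 CPM in LISC and 151 and 54.9 CPM in SISC, and Insr, the insulin receptor gene, at 63.9 and 54.9 CPM in LISC and 49.6 and 43.6 CPM in SISC (edgeR adjusted p = 0.809 and 0.763).

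Among TNF receptor genes, edgeR called 0 of 15 others tested, against 2.20% of all genes tested. Of the 15, 4 had an unadjusted p below 0.05, against 1899 of all 14165 genes. DESeq2 called 2, both higher in LISC, where it called 785 of all genes, and limma on TPM called 0. The most abundant, the lymphotoxin receptor gene Ltbr, had 95 and 87.3 CPM in LISC and 104 and 74 CPM in SISC (edgeR adjusted p = 1). Tnfrsf14 was higher in replicate 1 of both intestines, at 27.3 and 3.82 CPM in LISC and 51.8 and 7.22 CPM in SISC. Of 7 genes of TRAF adaptors, which link such receptors to signalling, edgeR called 0, with 1 at an unadjusted p below 0.05. DESeq2 called 1 of them, higher in LISC, and limma 0, beside the same all-gene counts. Traf7 had 84.6 and 54.7 CPM in LISC and 89.5 and 50.5 CPM in SISC, and Traf4 59.4 and 53.1 CPM in LISC and 65.3 and 40.9 CPM in SISC.

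Other gastrokine genes were not read beside Gkn3. Gkn1 had 0 counts in all 4 libraries, and Gkn2 had 0 in all but SISC replicate 2, at 0.0937 CPM. Of the trefoil factor genes, whose proteins accompany mucus, Tff3 had 163 and 427 CPM in LISC and 171 and 87.1 CPM in SISC (edgeR adjusted p = 0.562), and Tff2 0.463 and 1.34 CPM in LISC and 1.02 and 0.125 CPM in SISC. The mucin gene Muc5ac had 0 counts except in SISC replicate 2, at 0.0312 CPM, and the proton pump gene Atp4b had 0 in all 4. The 10 gastric epithelium markers summed to 1.3 and 1.58 CPM in LISC and 10.9 and 14.2 CPM in SISC. Of 3 tested 1 was called, with SISC above, where 0.741% of all genes were called that way. It was Pgc, the gene of pepsinogen C, at 0.0927 and 0.0687 CPM in LISC and 7.57 and 12.9 CPM in SISC (edgeR adjusted p = 0.0218). Its pooled counts put SISC 150-fold above LISC (exact 95% interval 51 to 729), and it was picked after its value was seen.

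Genes of ammonia and urea handling were called beside the urea transporter gene. EdgeR called 3 of the 10 others tested, all with SISC above, where 0.741% of all genes were called that way. Cps1, the mitochondrial enzyme that joins ammonia and bicarbonate, had 275 and 201 CPM in LISC and 2939 and 2350 CPM in SISC, an 11.1-fold difference (edgeR adjusted p = 0.0447). Nags, which makes the activator of that enzyme, had 5.19 and 6.32 CPM in LISC and 39.1 and 28.1 CPM in SISC, a 5.80-fold difference (edgeR adjusted p = 0.0354). Slc25a15, the mitochondrial ornithine carrier gene, had 29.9 and 28.2 CPM in LISC and 91.5 and 97.7 CPM in SISC, a 3.26-fold difference (edgeR adjusted p = 0.0494). Otc, the enzyme that makes citrulline, had 31.3 and 45.5 CPM in LISC and 91 and 143 CPM in SISC and was not called (edgeR adjusted p = 0.132). Asl, a cytosolic enzyme of a later step, was read at 26.9 and 26.7 CPM in LISC and 20.4 and 28.3 CPM in SISC (edgeR adjusted p = 0.98). Of the 10 enterocyte and colonocyte markers, edgeR called 2, both with SISC above, beside the 0.741% of all genes called that way. One was Apoa4, at 0 and 0 CPM in LISC and 10.1 and 14 CPM in SISC (edgeR adjusted p = 0.0264). The other was the sucrase gene Sis, at 0.834 and 0.997 CPM in LISC and 40.2 and 13.7 CPM in SISC (edgeR adjusted p = 0.0431). Car1, a colonocyte marker, had 126 and 920 CPM in LISC and 0 in SISC and was not called (edgeR adjusted p = 0.0603). The list summed to 214 and 1148 CPM in LISC and 143 and 171 CPM in SISC, and the part of such cells in the values of the urea genes was not tested. Slc14a2, the other urea transporter gene, had no library above 0.0344 CPM. The calls of Cps1 and Nags were lost without LISC replicate 1 (edgeR adjusted p = 0.163 and 0.0685), without LISC replicate 2 (0.327 and 0.0655) and with limma on TPM, and that of Slc25a15 under 7 of 10 alternatives, among them leaving out SISC replicate 1 (edgeR adjusted p = 0.0777), SISC replicate 2 (0.0913), LISC replicate 1 (0.216) or LISC replicate 2 (0.319).

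**Figure D4:**
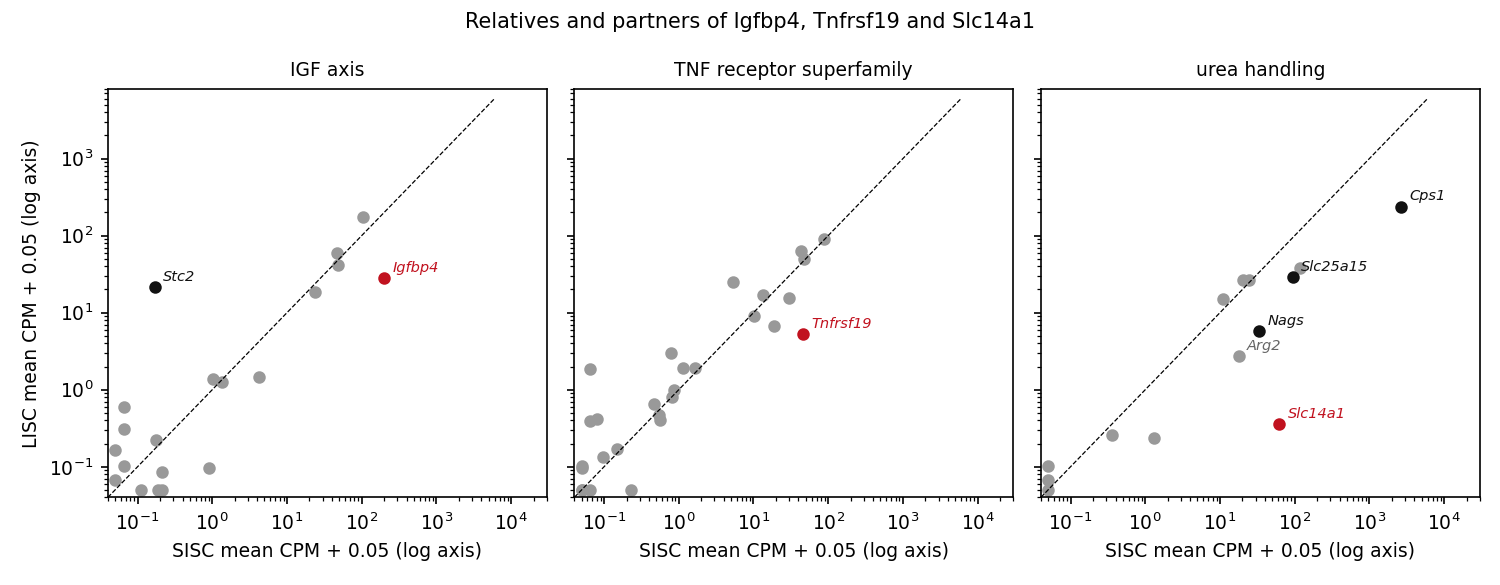
Mean CPM over 2 libraries, with 0.05 added, in LISC (vertical) against SISC (horizontal), both on log axes, for genes of the IGF axis, the TNF receptor superfamily and urea handling; the dashed line marks equal levels, red the genes described here, black other called genes and grey the rest. Igfbp4, Tnfrsf19 and Slc14a1 lie below the line, with Cps1, Slc25a15 and Nags, and Stc2 lies above it.

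The 5 genes lie on 4 chromosomes, and 1 gene near them was called. Coordinates are from GENCODE vM21 (GRCm38). Olfm4 (ENSMUSG00000022026) is on chromosome 14, 79984081 to 80023139, plus strand, and Tnfrsf19 (ENSMUSG00000060548) on chromosome 14, 60963875 to 61046490, minus strand. Igfbp4 (ENSMUSG00000017493) is on chromosome 11, 99041244 to 99054392, plus strand. Gkn3 (ENSMUSG00000030048) is on chromosome 6, 87383256 to 87388935, and Slc14a1 (ENSMUSG00000059336) on chromosome 18, 78100091 to 78142119, both minus strand. Of 77 other protein-coding genes tested within 1 Mb of one of them, 1 was called, or 1.30%, against 2.20% of all genes tested. It was Pcdh8, a protocadherin gene 212768 bases from Olfm4 and its nearest protein-coding neighbour on that side. Pcdh8 had 0 and 0.0687 CPM in LISC and 18.4 and 14.7 CPM in SISC (edgeR adjusted p = 0.0193), and with 2 pooled counts in LISC the ratio was 316-fold (exact 95% interval 87 to 2610). On the other side Pcdh17, 4420423 bases away, was higher in both LISC libraries, with 37.2 and 26.8 CPM in LISC and 0.873 and 0.0625 CPM in SISC, and was not called (edgeR adjusted p = 0.0633).

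The neighbours of Igfbp4 were read in both groups: Top2a, a topoisomerase of dividing cells, had 290 and 210 CPM in LISC and 442 and 311 CPM in SISC, and Tns4, a tensin gene, 42.6 and 26.6 CPM in LISC and 91.5 and 50.2 CPM in SISC (edgeR adjusted p = 0.707 and 0.408). Mipep beside Tnfrsf19 had 25.7 and 31.9 CPM in LISC and 23.3 and 32.4 CPM in SISC. Gkn3 and Slc14a1 lie between genes that were hardly read, Gkn2 (3758 bases away) and Bmp10 for Gkn3, and Siglec15 and Slc14a2 (4028 bases away) for Slc14a1. Noncoding genes overlap 2 of the 5, Gm6999 on the same strand as Olfm4 with 0 counts except 4.16 in SISC replicate 2, and Gm41168 opposite Tnfrsf19 with 0 in all 4 libraries. Strand cannot separate reads of Gm6999 from those of Olfm4. For Gm41168, no source used here states how strand was handled in counting, so whether strand separated its reads is not known.

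**Figure D5:**
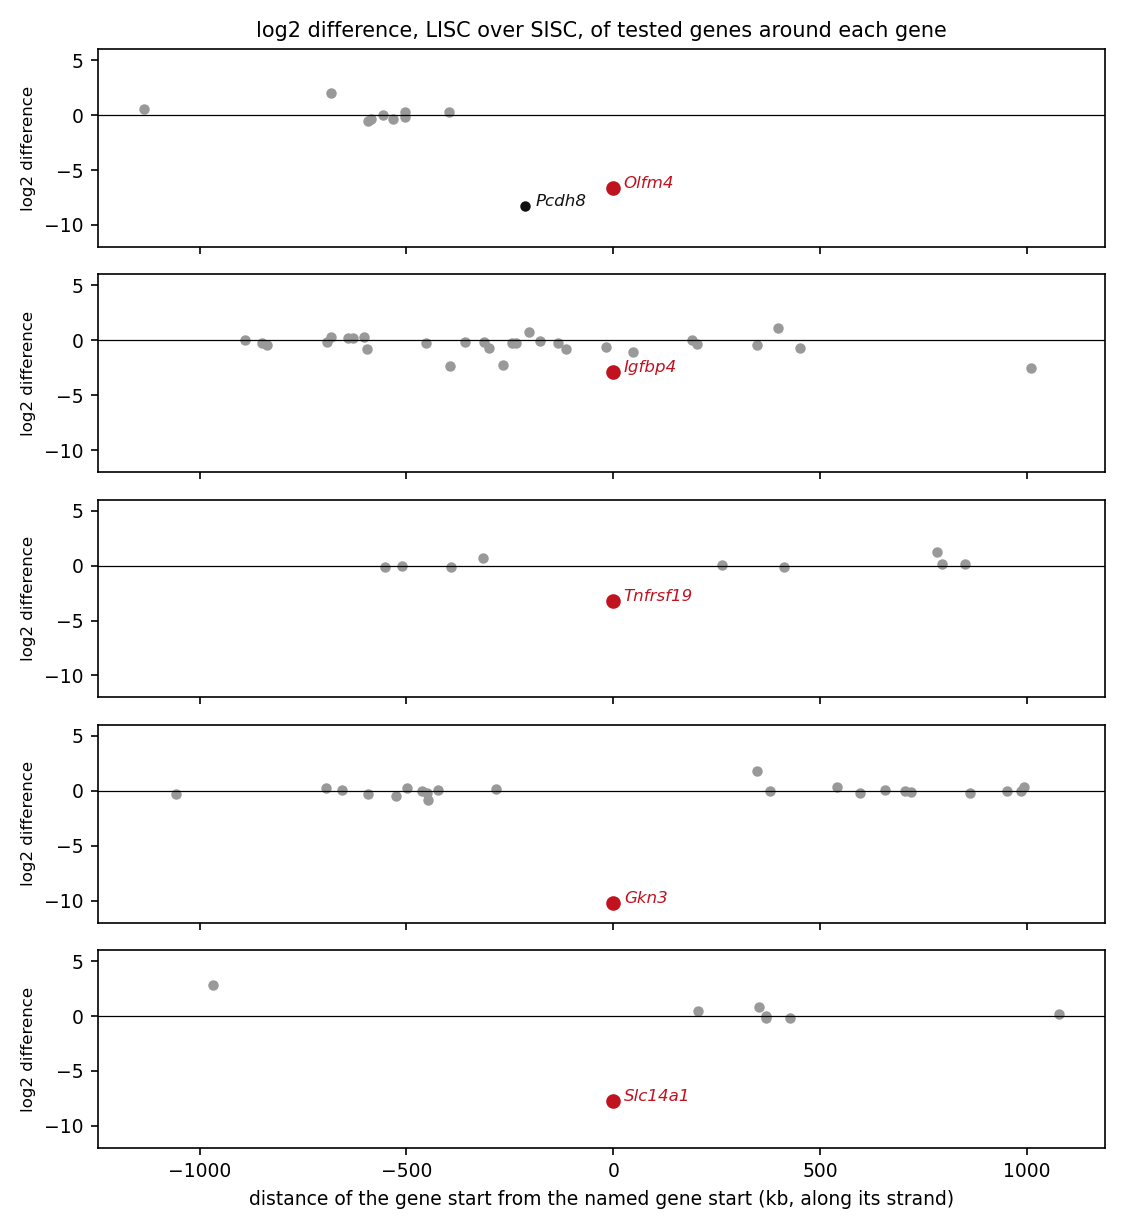
Fitted log2 difference of LISC over SISC (vertical) for each tested protein-coding gene within 1 Mb of the 5 genes, against the distance in kb between gene starts along the strand of the named gene; red marks the named gene, black a called neighbour and grey the rest. Pcdh8 beside Olfm4 is the called neighbour, and most grey points lie near 0.

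The deposited gene length, a mean over a gene's transcripts weighted by their estimated share, was not used to choose the genes and gives a view of which transcripts were read. For Olfm4 it was 2801 bases in all 4 libraries, the length of the 5-exon transcript Olfm4-203, so nearly all reads were assigned to that transcript in both intestines, and little to the 1640 bases of Olfm4-201. Gkn3 has 1 annotated transcript, of 856 bases in 6 exons. Slc14a1 was at 3665 and 3665 bases in LISC and 3653 and 3633 bases in SISC, near the 3665 bases of Slc14a1-201, although the LISC values rest on 4 and 7 counts. Igfbp4 was at 2163 and 2958 bases in LISC and 2271 and 2825 bases in SISC, between transcripts of 452 and 3831 bases, so the 2 libraries of one intestine differed more than the intestines. Tnfrsf19 was at 3980 and 3421 bases in LISC and 3637 and 3633 bases in SISC, with no separation of the groups. With 2 libraries against 2 an exact permutation test cannot reach the threshold of 0.05, so none was run.

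Genes with a like pattern over the 4 libraries were sought among 7322 protein-coding genes that reached 10 TPM, by the root mean square difference of centred log2(TPM + 1), a description from 4 points that shrinks differences of low genes. The profile nearest to Olfm4 was that of Prap1, a secreted proline-rich acidic protein gene, at a distance of 0.10 (1.64 and 5.75 TPM in LISC, 295 and 702 TPM in SISC). Gkn3 (0.61) and Sfrp5, a secreted Wnt antagonist gene (0.82), came after it, and for Gkn3 the nearest were Olfm4 (0.61), Prap1 (0.68) and Sfrp5. Slc14a1 was nearest to Ms4a10 (0.02), with 0.78 and 0.76 TPM in LISC and 17.2 and 44.3 TPM in SISC, then to the apolipoprotein gene Apoa1 (0.23) and to Wfdc10 (0.24). Igfbp4 was nearest to the alcohol dehydrogenase gene Adh6a (0.06), the zinc transporter gene Slc30a2 (0.10) and the apolipoprotein gene Apoa4 (0.15). Tnfrsf19 was nearest to Plekhb1 (0.14), to Oat (0.15), the ornithine aminotransferase gene, and to the sterol transporter gene Abcg8 (0.17). Oat was far more abundant than Tnfrsf19, at 92.9 and 140 TPM in LISC and 447 and 936 TPM in SISC. Among the 5 genes themselves Igfbp4 and Tnfrsf19 were closest (0.26) and Tnfrsf19 and Gkn3 farthest apart (2.20).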

How the data were processed

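Polyadenylated RNA was made into directional libraries, per the labels' protocols. The submitters' processing notes name STAR 2.7.2b, RSEM 1.2.31 and GRCm38. For the annotation release, trimming and strand handling, no statement was found in those sources. The authors deposited RSEM expected counts, in which shared reads are divided among genes (for 7.25% of genes the counts were not whole, at a tolerance of 0.001), TPM values, and gene and effective lengths. Groups and replicate numbers came from the sample titles.

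Of 55487 identifiers 55141 had a GENCODE vM21 symbol. Rounded counts were tested by the quasi-likelihood method of edgeR 4.0.16 under R 4.3.3 (TMM, filterByExpr with a minimum count of 10, group as the only term), adjusted by Benjamini-Hochberg over 14165 genes, threshold 0.05. Standard errors are the log2 difference over the square root of F. Alternatives were DESeq2 1.42.0, its size factors, no count filter, no rRNA genes, limma 3.58.1 on log2(TPM + 1), a replicate term and leaving out each library. The fits were run on simulated counts with known changes to check the code. The noise set there was below that of these data, so no error rate is taken from it. In a library, 3 counts equal 0.0937 to 0.278 CPM. Intervals and that limit cover counting error only, since reads without molecular identifiers are not independent molecules. Across genes the common biological coefficient of variation came to 43.4%.

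The 5 genes and all lists were chosen with earlier results of these data known. Named genes were the 5, up to 6 called genes and the 2 most abundant others (by TPM) of each list that is no marker list, neighbours, the 3 most alike, Lgr5 and Cd24a; others, among them Cyp2e1, Rgcc, Ascl2, Axin2, Pappa Pgc and the other cell type markers, were chosen after their values were seen. One gene that the rule would name is not reported here.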

Additional observations from a re-analysis of the deposited data

How the results depend on the processing

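The direction of the 5 genes was fixed by how they were chosen and is no sign of stability. Under the 10 alternatives their differences ranged as follows: Olfm4 from −6.97 to −6.31, Igfbp4 from −3.08 to −2.59, Tnfrsf19 from −3.55 to −2.48, Gkn3 from −11.37 to −6.80 and Slc14a1 from −8.06 to −3.99 on the log2 scale, where the fitted values of Gkn3 depend on the prior count. The values −6.80 of Gkn3 and −3.99 of Slc14a1 came from limma on log2(TPM + 1), where the pseudocount of 1 exceeds their TPM in LISC. Leaving out a library moved Tnfrsf19 between −3.55 and −2.71, Gkn3 between −11.37 and −8.98, Slc14a1 between −8.06 and −7.36, and the median of the 36 other stem cell markers between −0.67 and −0.42. The count of called genes was 311 and changed to 1183 with DESeq2, 1407 with no filter on low counts, 525 with limma on TPM and 245 to 487 without a library, the 487 being without SISC replicate 1. Of the 36 other stem cell markers, 2 were called, 15 with DESeq2, 11 with no filter, 16 with the replicate term and 2 to 5 without a library. A block on replicate number called 1539 genes. The labels do not say that a number marks a shared animal or day, so numbers were not taken as pairs, although the difference of replicate 1 from replicate 2 correlated across 14165 genes, which are not independent, at 0.648 between LISC and SISC. The block moved Gkn3 to −10.57 and Slc14a1 to −7.87. Depth limits Gkn3 and Slc14a1 in LISC, where folds rest on 3 and 11 pooled counts. The calls of Fstl1, Stc2, Pcdh8 and Pgc were kept under all 10 alternatives, which were run on these genes after seeing the data; edgeR, DESeq2 or limma adjusted p reached at most 0.046, 0.0167, 0.021 and 0.028.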
